A study of Mus musculus with 48 samples.

Results

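The comparison described here asked for which genes the response of the liver to a high-fat diet differed between wild-type mice and mice that lack Pparα in hepatocytes. For each gene it takes the difference between high-fat diet (HFD) and control diet (CTRL) in wild-type (WT) mice, minus the same difference in hepatocyte knockout (LKO, Pparα hep-/-) mice. It rests on 32 of the 48 arrays of the series, chosen by their genotype and diet labels, each array from its own mouse, and holds 4 groups of 8. The remaining 16 arrays come from whole-body knockout mice (KO), whose values are given only side by side. All mice were male C57Bl6J, killed in the fed state after housing at thermoneutrality. The labels give an age of 20 weeks and 12 weeks on either a low-fat control diet or a diet with 60% of its calories as fat, whereas the text of the study gives a shorter time on the diet. LKO mice carry 2 floxed Pparα alleles and 1 albumin-Cre transgene, which is active in hepatocytes and leaves the gene intact in other liver cells. They were bred on site, whereas the WT mice were bought from a vendor and acclimated, so the source of the mice and the deletion cannot be told apart. What differs between the 2 responses may lie on either diet, so the levels in all 4 groups are given.

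PPARα is a nuclear receptor that fatty acids activate. In hepatocytes it drives genes of fatty acid uptake, oxidation in peroxisomes and mitochondria, microsomal omega-oxidation and ketogenesis. Cholesterol is made from acetyl-CoA by a chain of enzymes in the cytosol and endoplasmic reticulum. Their genes are switched on together by SREBP2, a transcription factor held in the endoplasmic reticulum membrane by SCAP and INSIG proteins while sterols are plentiful, and processed and sent to the nucleus when sterols run low. SREBP2 binds sterol elements in promoters, in many cases beside CCAAT boxes that bind NF-Y.

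Interaction values below are log2 differences of differences, in which a positive value means that HFD minus CTRL was higher in WT than in LKO mice. They carry the standard error (SE) of the limma model and a p adjusted by Benjamini-Hochberg over all probes tested, and the threshold for a call was 0.05 on that scale. A gene is represented by its brightest tested probe, and probe positions are those of mm9. Levels are normalised log2 signals, given as the lowest to the highest of 8 mice with the median in parentheses. The p-values measure the spread between mice. In whole liver, fewer cells of a type and less RNA per cell cannot be told apart.

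Some arrays stood apart. The model weighted each array by its agreement with its group, and the weights ran from 0.189 to 2.53. Among the 32 arrays 4 had a weight under 0.5, namely LKO CTRL mouse 1 (0.189), WT CTRL mouse 6 (0.208), WT HFD mouse 2 (0.343) and WT HFD mouse 6 (0.372). WT HFD mice 1 and 2 had the highest signals of Lcn2 among the 32 mice, an acute-phase gene, at 17.3 and 17.63, against 11.06 to 15.07 in the other WT HFD mice. Arrays were washed in 2 batches, with 4 mice of each WT group in either batch, 3 LKO CTRL and 5 LKO HFD mice in batch 1, and 5 and 3 in batch 2. The batch was a term of the model. Across the 32 arrays the median intensity was 60 to 91 over a median background of 20 to 36, no spot was saturated, and 30654 to 38217 spots were well above background. Albumin (Alb) stood at 18.71 or more in every mouse, and each of the 10 hepatocyte markers was well above background in every mouse.

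Of 33323 probes tested, 3472 were called (10.4%), with the WT response higher for 1931 and lower for 1541. By gene, 2470 of 22160 gene names were called, 1395 with the WT response higher (6.30% of genes tested) and 1075 with it lower (4.85%). Most differences were small, with a median absolute interaction of 0.47 among called genes, and 270 genes reached 1 or more. The calls depended on the array weights. Without weights 298 probes were called, and 208 genes (0.939%) were called with and without weights, 157 with the WT response higher and 51 with it lower. All 208 had the same sign of interaction in both wash batches, which their selection favours, against 13357 of all 22160 genes. Within the batches alone, without weights, limma called 0 probes in batch 1 (2232 at an unadjusted p under 0.05) and 62 in batch 2. The split of the calls moved too. The WT response was higher for 55.6% of called probes, for 71.8% without weights, and for 68.6% when the scanner's processed signal, scaled to the 75th percentile of each array, replaced the quantile-normalised median intensity. With that processed signal, in which signal and scaling change together, the median interaction of all probes moved from -0.01 to 0.05.

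Called genes differ between the 2 responses by selection, which favours opposite signs. For 1991 of the 2470 called genes the fitted response was positive in one genotype and negative in the other, against 9749 of all 22160 genes. Among the 1395 genes with a higher WT response, HFD raised the gene in WT mice with no call in LKO mice for 663, lowered it in LKO mice with no call in WT mice for 477, and did both for 114. Among the 1075 genes with a lower WT response the counts were 541 that fell in WT mice with no call in LKO mice, 376 that rose in LKO mice with no call in WT mice, and 55 that did both. The gap between genotypes changed sign with the diet for 1756 called genes, against 8304 of all genes. In the 157 genes with a higher WT response in both fits, 49 were higher in LKO than WT mice on CTRL and lower on HFD, each by a called difference. The scatter of the WT response against the LKO response shows genes with a higher WT response below the diagonal and those with a lower one above it.

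**Figure D1:**
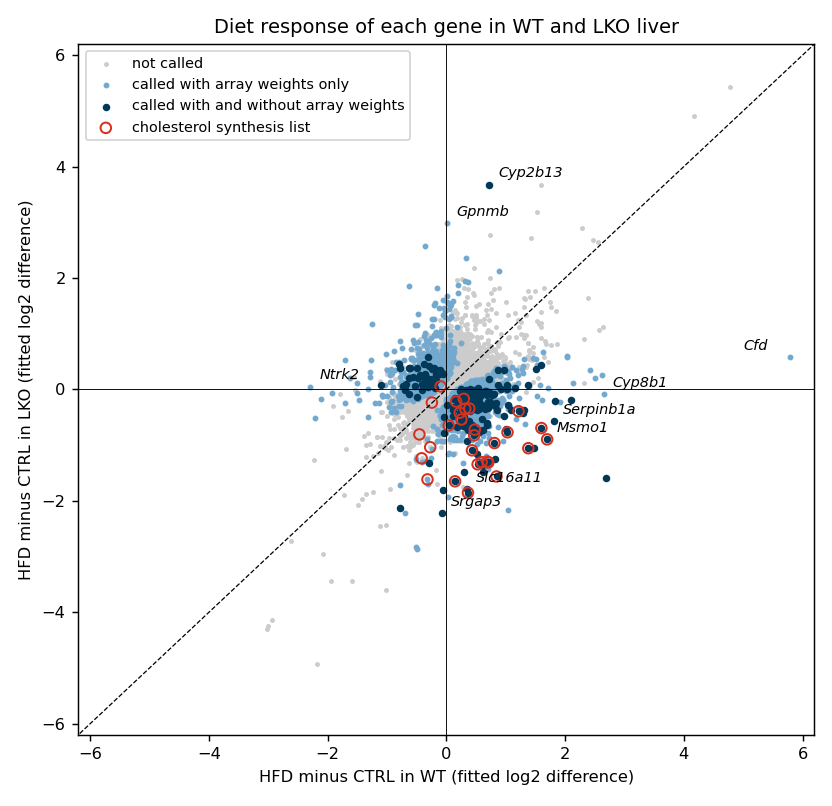
Each point is 1 of 22160 genes, with the fitted HFD minus CTRL log2 difference in WT mice on the x axis and in LKO mice on the y axis. The dashed line marks equal responses, blue points are the 2470 called genes, the dark ones being the 208 called with and without array weights, and red rings the 29 tested genes of the cholesterol synthesis list, most of which lie to the right of zero and below it.

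The deleted gene itself was measured by 2 probes. The brighter probe for Ppara, at chr15:85632110-85632169, read 14.03 to 15.07 (14.54) in WT CTRL mice, 14.65 to 15.24 (15.07) in WT HFD mice, 13.26 to 14.28 (14.11) in LKO CTRL mice and 14.11 to 14.54 (14.24) in LKO HFD mice. The 2 HFD groups did not overlap, whereas on CTRL the genotypes did. LKO mice were lower than WT mice by a log2 difference of -0.42 on CTRL (adjusted p = 0.000887) and -0.85 on HFD (adjusted p = 5.12e-10). The interaction was 0.42 (SE 0.13, adjusted p = 0.029), which is a response of 0.52 in WT mice against 0.10 in LKO mice, and it was not called without array weights (0.22, adjusted p = 0.602). At the dimmer probe for Ppara, chr15:85637193-85637252, the interaction was 0.58 (adjusted p = 0.00234), and 0.37 (adjusted p = 0.295) without weights. The place of the probes relative to the deleted part of Ppara was not established here, so the signal left in LKO mice does not check the labels.

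Genes of cholesterol synthesis made up the group with the highest share of calls among the lists counted. Of 30 listed enzymes, regulators and SREBP2 targets, 29 were tested, 23 were called with the WT response higher, and 0 with it lower, against 6.30% and 4.85% of all genes. Of these, 21 were called without array weights too. The median interaction over the list was 1.30, against 0.01 over all genes tested, and it was made of a median response of 0.39 in WT mice and -0.83 in LKO mice. By diet, the median LKO minus WT difference was 0.45 on CTRL and -1.08 on HFD. The list was drawn up with earlier results of these data known, so its counts are a description.

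Promoters of 4 of these genes (RefSeq, GRCm38.p6) are printed because the genes moved together and because SREBP2 and NF-Y act at such promoters. They are Msmo1 (chr8:64733529-64733828, minus strand), Nsdhl (chrX:72918271-72918570, plus strand), Hmgcs1 (chr13:119690101-119690400, plus strand) and Cyp51 (chr5:4104648-4104947, minus strand). Each runs 5′ to 3′ from 250 bases before to 50 bases after the start of the gene. Capitals mark CCAAT (or ATTGG, its reverse complement) and the sterol element TCACNCCAC on either strand.
Msmo1: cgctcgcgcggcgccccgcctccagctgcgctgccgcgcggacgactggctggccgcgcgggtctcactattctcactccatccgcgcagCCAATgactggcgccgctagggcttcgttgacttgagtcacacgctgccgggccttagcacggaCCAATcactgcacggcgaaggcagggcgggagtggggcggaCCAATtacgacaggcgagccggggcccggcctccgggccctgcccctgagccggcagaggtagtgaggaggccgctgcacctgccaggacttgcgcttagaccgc
Nsdhl: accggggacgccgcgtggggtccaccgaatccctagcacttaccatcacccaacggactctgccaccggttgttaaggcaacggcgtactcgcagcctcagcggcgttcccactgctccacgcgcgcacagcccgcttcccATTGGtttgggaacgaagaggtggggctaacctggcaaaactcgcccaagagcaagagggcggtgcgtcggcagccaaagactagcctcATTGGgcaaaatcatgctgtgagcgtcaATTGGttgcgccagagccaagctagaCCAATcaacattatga
Hmgcs1: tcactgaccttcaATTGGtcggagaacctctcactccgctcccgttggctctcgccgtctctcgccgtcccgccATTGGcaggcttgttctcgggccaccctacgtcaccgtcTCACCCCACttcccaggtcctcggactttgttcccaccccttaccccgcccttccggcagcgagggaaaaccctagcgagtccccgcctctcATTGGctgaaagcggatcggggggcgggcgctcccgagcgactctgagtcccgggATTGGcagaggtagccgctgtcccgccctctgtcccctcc
Cyp51: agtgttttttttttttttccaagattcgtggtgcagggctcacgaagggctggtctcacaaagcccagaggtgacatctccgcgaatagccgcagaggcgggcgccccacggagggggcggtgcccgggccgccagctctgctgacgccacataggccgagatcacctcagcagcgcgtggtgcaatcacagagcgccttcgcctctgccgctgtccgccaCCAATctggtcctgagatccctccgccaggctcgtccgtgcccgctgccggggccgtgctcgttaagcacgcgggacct

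A CCAAT box on either strand stood in 20 of the 26 windows of the 21 listed genes with an entry (76.9%), against 37.4% of all 32851 promoter windows of the same length, and 2 or more stood in 13 of them (50%) against 11.7%. The sterol element in the spelling searched was found in 1 of the 26 windows (3.85%), that of Hmgcs1, and in 1.24% of all windows. The windows printed hold 3, 4, 4 and 1 CCAAT boxes in Msmo1, Nsdhl, Hmgcs1 and Cyp51. The boxes did not follow the calls throughout. Ggps1, Lbr and Insig1, which were not called, had 3, 2 and 1, and each window of Scap, called in both fits, had 0. The list was chosen as pathway genes and SREBP2 targets, so these shares describe the list. A match describes the letters and is not evidence of binding.

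At the head of the pathway, Hmgcs1, which joins acetyl-CoA to acetoacetyl-CoA, read 12.73 to 14.05 (13.33) in WT CTRL mice, 13.92 to 15.95 (14.94) in WT HFD mice, 12.94 to 15.42 (13.82) in LKO CTRL mice and 12.43 to 13.84 (13.3) in LKO HFD mice. All 8 WT mice on HFD stood above the WT CTRL mean, all 8 LKO mice on HFD stood below the LKO CTRL mean, and within HFD the genotypes did not overlap. The interaction of Hmgcs1 was 2.29 (SE 0.41, adjusted p = 0.000328), which is a rise of 1.60 in WT mice and a difference of -0.69 in LKO mice that was just outside the threshold (adjusted p = 0.0534).

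The mevalonate kinases and the enzymes that build farnesyl diphosphate followed. Mvd, which makes isopentenyl diphosphate, read 8.07 to 10.75 (8.74) in WT CTRL mice, 8.89 to 10.42 (9.33) in WT HFD mice, 9.05 to 11.19 (9.36) in LKO CTRL mice and 7.57 to 8.54 (8.28) in LKO HFD mice. Of the diet groups only those of LKO mice were fully apart for Mvd, the genotypes were apart on HFD, and its interaction of 2.22 (SE 0.45, adjusted p = 0.00145) came from a fall of -1.86 in LKO mice beside a WT response of 0.36 that was not called. Fdps, farnesyl diphosphate synthase, read 13.81 to 15.75 (14.69) in WT CTRL mice, 14.81 to 16.03 (15.31) in WT HFD mice, 14.58 to 16.49 (15.24) in LKO CTRL mice and 13.08 to 15.11 (14.44) in LKO HFD mice. All 8 WT HFD mice were above and all 8 LKO HFD mice below the CTRL mean of their genotype, with overlap between diets in both genotypes, and the interaction of Fdps was 1.90 (SE 0.43, adjusted p = 0.00338). Mvk (1.61), Pmvk (1.87) and Idi1 (1.80) were called in the same direction with and without weights. Ggps1, which leads away from sterols to geranylgeranyl diphosphate, was not called (-0.15, adjusted p = 0.277).

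From squalene onwards the differences were as large. Sqle, squalene epoxidase, read 10.05 to 12.96 (11.59) in WT CTRL mice, 12 to 13.54 (12.61) in WT HFD mice, 12.25 to 13.87 (12.71) in LKO CTRL mice and 10.38 to 12.43 (11.36) in LKO HFD mice. The diet groups overlapped within each genotype, yet all 8 HFD mice lay above the CTRL mean in WT and all 8 below it in LKO mice. Its interaction was 2.41 (SE 0.47, adjusted p = 0.00102), with a fall of -1.56 in LKO mice (adjusted p = 0.000287) and a WT response of 0.84 that was not called (adjusted p = 0.0967). Fdft1, squalene synthase, and Lss, which closes the sterol rings, had interactions of 1.29 and 1.52 and were called in both fits.

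Cyp51, the lanosterol demethylase, read 10.84 to 12.49 (11.36) in WT CTRL mice, 11.51 to 12.82 (12.22) in WT HFD mice, 11.22 to 13.06 (11.62) in LKO CTRL mice and 10.19 to 11.33 (10.71) in LKO HFD mice. On HFD all 8 LKO mice lay below all 8 WT mice, whereas on CTRL the genotypes overlapped. The interaction of Cyp51 was 2.02 (SE 0.35, adjusted p = 0.000268). Tm7sf2, a sterol reductase, read 12.7 to 14.5 (14.2) in WT CTRL mice, 14.18 to 14.92 (14.82) in WT HFD mice, 13.31 to 15.28 (14.63) in LKO CTRL mice and 13.03 to 14.06 (13.51) in LKO HFD mice. The highest LKO HFD mouse again lay below the lowest WT HFD mouse, and the interaction was 1.99 (SE 0.27, adjusted p = 7.73e-06), from a rise of 0.69 in WT mice and a fall of -1.30 in LKO mice.

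Msmo1, the C4-methyl sterol oxidase, had the largest interaction among named genes called in both fits with a higher WT response. It read 12.45 to 13.23 (12.86) in WT CTRL mice, 13.89 to 15.34 (14.5) in WT HFD mice, 13.33 to 15.1 (13.71) in LKO CTRL mice and 12.73 to 13.55 (13.24) in LKO HFD mice. The WT diet groups were fully apart, the genotypes were fully apart on both diets with the order turned round, and the LKO diet groups overlapped. The interaction of Msmo1 was 2.60 (SE 0.31, adjusted p = 8.35e-07), from a rise of 1.70 in WT mice (adjusted p = 1.83e-06) and a fall of -0.90 in LKO mice (adjusted p = 0.00115), and its other 2 probes were called in the same direction. Nsdhl, which acts with Msmo1 to remove the C4 methyl groups, read 8.93 to 10.74 (9.99) in WT CTRL mice, 10.92 to 11.79 (11.42) in WT HFD mice, 9.76 to 12.09 (10.7) in LKO CTRL mice and 9.49 to 10.33 (9.89) in LKO HFD mice. WT diet groups did not overlap for Nsdhl, nor did the genotypes on HFD. The interaction was 2.44 (SE 0.35, adjusted p = 2.19e-05), from a rise of 1.38 and a fall of -1.06. Of the other probes, 1 for Nsdhl and 1 for Hmgcs1 had the same sign and were not called.

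In the plot of 8 cholesterol synthesis genes LKO mice were lower than WT mice on HFD by a called difference in each panel. On CTRL LKO mice were higher by a called difference for Msmo1, Nsdhl, Sqle and Tm7sf2, whereas the CTRL difference was not called for Hmgcs1, Mvd, Cyp51 and Fdps, whose LKO CTRL means lay below the WT CTRL means in wash batch 1. The later enzymes Hsd17b7 (1.20), Ebp (0.64), Sc5d (0.79) and Dhcr7 (1.77) were called in both fits, as was Rdh11 (1.80), a retinal reductase and known SREBP target. Lbr, whose reductase activity duplicates that of Tm7sf2, was not called (-0.01, adjusted p = 0.972).

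**Figure D2:**
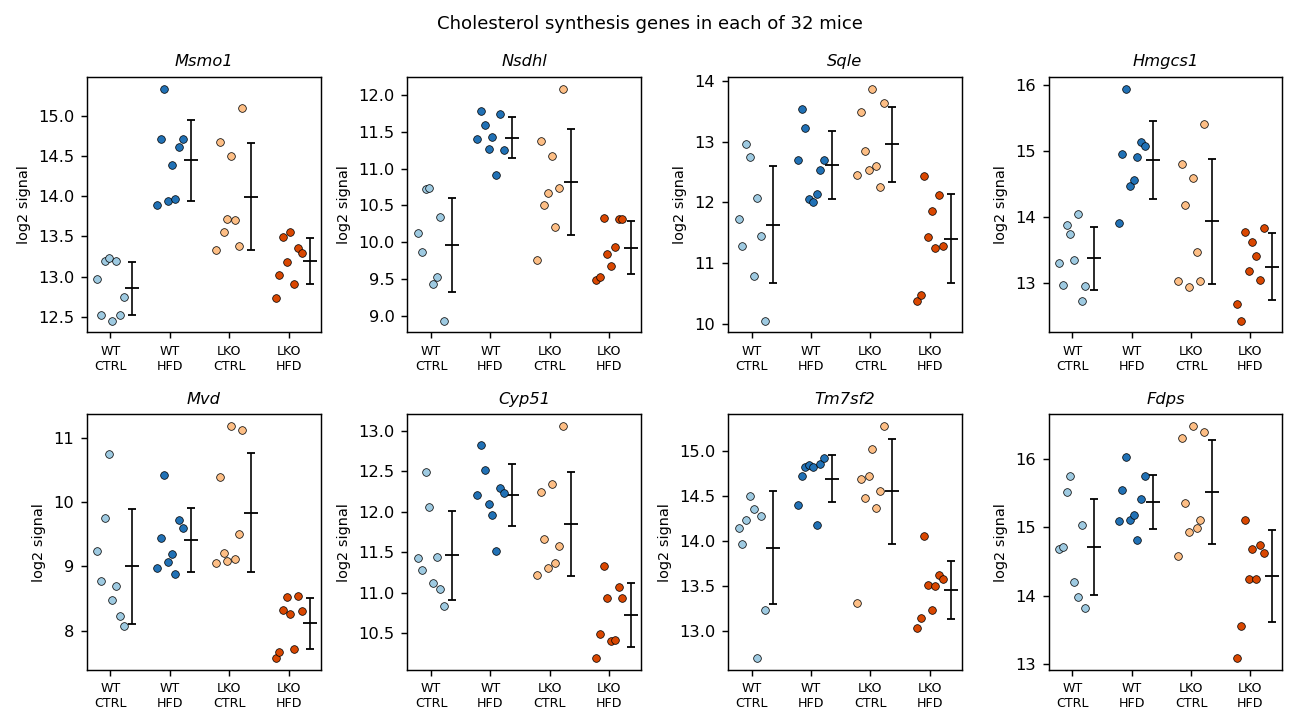
Normalised log2 signal (y axis) of 8 cholesterol synthesis genes in each of the 32 mice, by genotype and diet (x axis), with bars for the mean and SD of 8 mice. In every panel the WT HFD points lie above the LKO HFD points on average, and for Msmo1, Nsdhl, Hmgcs1, Mvd, Cyp51 and Tm7sf2 the lowest WT HFD mouse is above the highest LKO HFD mouse.

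Regulators and other SREBP2 targets on the list were called in part. Srebf2, which encodes SREBP2, had an interaction of 0.46 (adjusted p = 0.00345) that was not called without weights (0.38, adjusted p = 0.0517). Scap, its escort, had 0.69 (SE 0.11, adjusted p = 8.18e-05) and was called in both fits, through a difference of -0.65 in LKO mice. Insig1 (0.77, adjusted p = 0.091) and Stard4, a cholesterol carrier (0.35, adjusted p = 0.35), were not called. Tmem97, a sterol-responsive membrane protein, was called in both fits (0.66).

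Acss2, a SREBP target that makes acetyl-CoA from acetate in the cytosol, read 11.69 to 13.9 (13.16) in WT CTRL mice, 12.51 to 13.83 (13.18) in WT HFD mice, 12.62 to 15.14 (14.06) in LKO CTRL mice and 12.35 to 13.2 (12.77) in LKO HFD mice. The WT medians were nearly level, and all 8 LKO HFD mice were below the LKO CTRL mean. Its interaction was 1.79 (SE 0.32, adjusted p = 0.000317) and was called in both fits. Of 3 other probes for Acss2, 1 was called in the same direction, and 1 had the opposite sign and was not called.

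The size of these differences varied with the wash batch. Fitted within each batch without weights, the list's median interaction was 0.56 in batch 1, with 25 of 29 genes positive and 0 called, and 1.94 in batch 2, with 28 positive and 18 called. For Msmo1 the interaction was 1.54 in batch 1 and 3.07 in batch 2. For Hmgcs1 it was 0.91 and 3.13, and its LKO CTRL mean was 13.01 (SD 0.06, n = 3) in batch 1 against 14.5 (SD 0.73, n = 5) in batch 2. A test of the difference between batches, chosen after its values were seen, called 0 of 28 list genes without missing values and 0 of 33129 probes, with a lowest adjusted p of 0.503 on the list with weights. Still, 27 of these 28 genes had the larger interaction in batch 2, by a median of 1.25 with weights and 1.47 without. Among the 33129 probes 16539 were larger in batch 2 with weights. Without the 2 WT HFD mice with high Lcn2 the weighted fit called the same number of list genes, 23, with a median of 1.33.

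**Figure D3:**
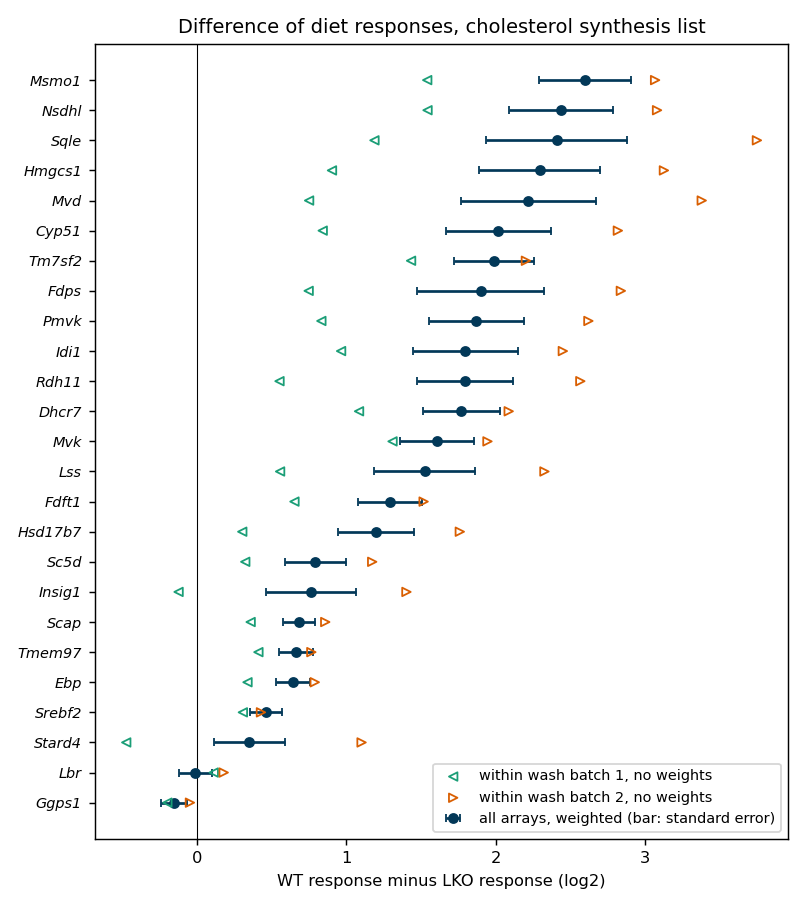
WT response minus LKO response (log2, x axis) for the 25 genes of the cholesterol synthesis list named in the text (y axis). Filled circles with bars are the weighted interaction and its standard error over all arrays, and open triangles the unweighted values within wash batch 1 (left-pointing) and wash batch 2 (right-pointing), where the median over all 29 tested genes of the list is 0.56 and 1.94.

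Signals of the clock gene Arntl, which moves through the day, had medians of 6.36 in WT CTRL, 7.39 in WT HFD, 8.04 in LKO CTRL and 8.25 in LKO HFD mice. Its interaction was 0.80 (adjusted p = 0.294). Of 20 clock genes 0 were called, a list too short to tell this from the 6.30% and 4.85% of all genes. The part of the time of day in the cholesterol genes was not tested. In KO mice the fitted diet response was 0.03 for Msmo1, 0.05 for Nsdhl, 0.54 for Hmgcs1, 0.32 for Sqle and -0.81 for Tm7sf2. It was -0.33 for Mvd, -0.08 for Cyp51 and -0.25 for Fdps. Among these genes only the KO response of Tm7sf2 was called (adjusted p = 0.000953).

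Outside the cholesterol list, 4 named genes were among the 12 with the largest positive interactions in both fits. Slc16a11, a monocarboxylate transporter of hepatocytes, read 11.58 to 13.17 (12.84) in WT CTRL mice, 12.5 to 13.37 (13.17) in WT HFD mice, 10.86 to 12.85 (11.72) in LKO CTRL mice and 9.76 to 10.36 (10.12) in LKO HFD mice. LKO HFD mice lay below every mouse of the other groups. The interaction of Slc16a11 was 2.14 (SE 0.26, adjusted p = 1.59e-06), from a fall of -1.79 in LKO mice beside a WT response of 0.35 that was not called.

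Srgap3, a GTPase-activating protein, read 5.64 to 6.82 (6.37) in WT CTRL mice, 5.48 to 6.62 (6.14) in WT HFD mice, 6.89 to 8.73 (8.26) in LKO CTRL mice and 5.46 to 6.43 (5.77) in LKO HFD mice. The LKO CTRL mice stood above all other mice, while the other 3 groups overlapped near background, with 5 to 7 of 8 mice well above it. Its interaction was 2.15 (SE 0.33, adjusted p = 7.27e-05), from a fall of -2.22 in LKO mice.

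Serpinb1a, a protease inhibitor, read 6.69 to 8.04 (7.81) in WT CTRL mice, 7.44 to 9.91 (9.54) in WT HFD mice, 10.66 to 12.89 (11.86) in LKO CTRL mice and 11.06 to 11.99 (11.48) in LKO HFD mice. Every LKO mouse was above every WT mouse, and the gap between genotypes was 4.42 on CTRL and 2.03 on HFD. WT mice rose by 1.82, and the LKO difference of -0.56 was not called. The interaction was 2.38 (SE 0.41, adjusted p = 0.000224). Fam89a read 6.9 to 9.18 (7.87) in WT CTRL mice, 7.98 to 10.35 (9.69) in WT HFD mice, 9.92 to 11.12 (10.38) in LKO CTRL mice and 9.91 to 10.69 (10.25) in LKO HFD mice. The diet difference was called in WT mice (2.11) and not in LKO mice (-0.18), and the interaction was 2.29 (SE 0.33, adjusted p = 3.22e-05). The probe for Serpinb1a may take up signal of close paralogs.

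Among genes with a lower WT response, Cyp2b13, a steroid and drug hydroxylase that is female-biased in mouse liver, had the most negative interaction of the genes called in both fits. It read 4.8 to 6.38 (5.3) in WT CTRL mice, 4.7 to 10.22 (5.63) in WT HFD mice, 4.76 to 5.71 (5.15) in LKO CTRL mice and 6.73 to 9.62 (8.68) in LKO HFD mice. It was well above background in 1, 3 and 1 of 8 mice of the first 3 groups and in all 8 LKO HFD mice, 1 WT HFD mouse being higher than any of these. The interaction of Cyp2b13 was -2.95 (SE 0.50, adjusted p = 0.000204), from a rise of 3.67 in LKO mice. It entered the test only through LKO HFD mice, the group in which it was high, and since most readings of the other groups were not well above background these differences are approximate. Within wash batch 1 it was -1.20 and within batch 2 -3.91. Its probe may also detect the paralog Cyp2b9.

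The other 11 genes of that direction lay between -0.77 and -1.25. Neat1, a nuclear long non-coding RNA of paraspeckles, read 9.21 to 10.94 (10.28) in WT CTRL mice, 9.12 to 9.85 (9.49) in WT HFD mice, 8.79 to 9.68 (9.46) in LKO CTRL mice and 9.3 to 9.9 (9.68) in LKO HFD mice. All 8 WT HFD mice were below the WT CTRL mean and 7 of 8 LKO HFD mice above the LKO CTRL mean. The interaction of Neat1 was -1.25 (SE 0.24, adjusted p = 0.000836), from a fall of -0.80 in WT and a rise of 0.45 in LKO mice.

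Arfgap3, which acts in Golgi vesicle traffic, read 9.27 to 10.35 (9.78) in WT CTRL mice, 8.29 to 9.23 (8.84) in WT HFD mice, 8.92 to 9.51 (9.22) in LKO CTRL mice and 8.97 to 9.39 (9.32) in LKO HFD mice. WT diet groups did not overlap, while the LKO groups were level. Its interaction was -1.18 (SE 0.18, adjusted p = 7.79e-05). Amd2, a paralog of the S-adenosylmethionine decarboxylase of polyamine synthesis, read 11.58 to 12.29 (12.02) in WT CTRL mice, 11.21 to 11.56 (11.42) in WT HFD mice, 11.28 to 11.96 (11.6) in LKO CTRL mice and 11.62 to 11.85 (11.73) in LKO HFD mice. The WT diet groups were fully apart, as were the genotypes on HFD, and the interaction was -0.84 (SE 0.15, adjusted p = 0.000356). Signal of Amd2 and Amd1 may not be separable at this probe.

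Ptprk, a receptor tyrosine phosphatase (-0.87), Syne3, a nuclear envelope protein (-0.90), Ppl, periplakin (-1.17), and Macir, a macrophage immunometabolism regulator (-0.79), were lower in the same sense, although 2 other probes for Ptprk were not called and 1 of them had the opposite sign. So were the cell cycle genes Cdc25a (-0.77) and Mad2l1bp (-0.79), the reductase Frrs1 (-0.77) and the myo-inositol transporter Slc5a3 (-0.77). For Slc5a3 the WT groups on the 2 diets did not overlap, at 6.85 to 7.84 on CTRL and 6.36 to 6.79 on HFD.

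Among the pathways of fatty acid breakdown, every called gene on the lists of thioesterases, peroxisomal, omega- and mitochondrial oxidation had a higher WT response. With array weights 6 of 14 acyl-CoA thioesterases, 12 of 49 peroxisomal genes, 5 of 15 genes of omega-oxidation and 4 of 36 mitochondrial genes were called, beside 6.30% of all genes, and 0, 0, 0 and 1 without weights. The weights count WT HFD mice 2 and 6 for less. Without WT HFD mice 1 and 2 the unweighted fit called 5 thioesterases, 4 genes of omega-oxidation and 7 peroxisomal genes, and 22 of the cholesterol list. Over all genes the calls with a higher WT response also rose in number in that fit, from 157 to 404. The 2 mice were left out after the data were seen. They were low for several of these genes, as given below, so leaving them out favours such calls.

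Acot1, a cytosolic thioesterase that frees fatty acids from CoA, read 9.65 to 12.83 (11.37) in WT CTRL mice, 8.52 to 13.88 (13.17) in WT HFD mice, 11.8 to 14.28 (13.01) in LKO CTRL mice and 11.94 to 13.88 (12.82) in LKO HFD mice. WT mice on CTRL had the lowest median, and the other 3 groups stood near each other, with WT HFD mice spread over more than any other group. The interaction of Acot1 was 2.13 (SE 0.66, adjusted p = 0.0319), and 1.43 (adjusted p = 0.451) without weights. Acot5 (1.80, adjusted p = 0.00822), Acot2 (1.45, adjusted p = 0.0488) and Acot4 (1.11, adjusted p = 0.0403) had the same form, a rise in WT mice to a median near those of LKO mice on either diet. A second probe for Acot5 was not called and had the opposite sign. Acot3, which the study names, read 7.57 to 11.82 (8.88), 5.99 to 12.79 (11.8), 10.78 to 12.24 (11.47) and 10.43 to 12.24 (11.8) in the same order of groups and was not called at its brightest probe (2.21, adjusted p = 0.0601). A second probe for Acot3 was called in the same direction (2.34, adjusted p = 0.0393, weights only). Probes of Acot1 to Acot5 may share signal, since the genes are close copies in 1 cluster on chromosome 12.

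Cyp4a10, a fatty acid omega-hydroxylase and PPARα target, read 8.58 to 11.82 (10.96) in WT CTRL mice, 9.47 to 13.42 (13.04) in WT HFD mice, 9.8 to 12.57 (11.41) in LKO CTRL mice and 9.43 to 12.15 (11.33) in LKO HFD mice. The WT HFD mice had the highest median, and 6 of 8 were above the WT CTRL mean. The interaction was 2.30 (SE 0.75, adjusted p = 0.0391), and 1.82 (adjusted p = 0.321) without weights. Cyp4a12a, a male-biased relative, had an interaction of the same size (2.37, adjusted p = 0.00516) and another form, a fall of -2.87 in LKO mice beside a WT response of -0.50 that was not called. Cyp4a14, another PPARα target named by the study, was not called (1.5, adjusted p = 0.0705), and it rose in both genotypes.

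Interactions of the 49 peroxisomal genes ran from -0.86 to 1.11. Slc27a2, a very long chain acyl-CoA synthetase, read 16.08 to 16.63 (16.39) in WT CTRL mice, 16.61 to 16.94 (16.8) in WT HFD mice, 16.17 to 16.53 (16.33) in LKO CTRL mice and 16.26 to 16.53 (16.39) in LKO HFD mice. WT HFD mice were above all LKO mice. The interaction of Slc27a2 was 0.48 (SE 0.09, adjusted p = 0.000941), and just outside the threshold without weights (adjusted p = 0.051). Ehhadh, the bifunctional enzyme of peroxisomal oxidation, had 0.72 (adjusted p = 0.0475), Abcd2, a peroxisomal fatty acid transporter, 1.02 (adjusted p = 0.0462) and Pex16, a membrane assembly factor, 0.54 (adjusted p = 0.00352). In mitochondria Acsl5, which activates fatty acids, was called in both fits (0.74, adjusted p = 0.00192), from a fall of -0.78 in LKO mice. Ketogenesis genes gave 0 calls of 10, a list too short to tell this from the shares of 6.30% and 4.85% over all genes.

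WT HFD mice 1 and 2 were low for several of these genes. Acot3 stood at 6.72 and 5.99 in them against 11.64 or more in the other 6 WT HFD mice, and Cyp4a14 at 5.49 and 5.74 against 8.33 or more. Vnn1, a pantetheinase and PPARα target, stood at 10.21 and 9.04 in them against 11.63 or more. It rose in both genotypes, and its interaction was not called (0.76, adjusted p = 0.343). Saa1, an acute-phase gene, read 18.81 in both mice. It was high in other groups too, at 18.59 in WT CTRL mouse 7, 17.64 in WT CTRL mouse 1 and 18.14 in LKO HFD mouse 5. Of 28 acute-phase genes 1 was called, Steap4, with a lower WT response and with weights only, a share below the 4.85% of all genes. Without WT HFD mice 1 and 2, 9 of the 28 were called lower with weights, beside 1321 of all 22160 genes, and 1 without weights, beside 204. These mice were left out for their high Lcn2, an acute-phase gene, so that choice itself favours lower calls on this list. The list's median was -0.24 over all arrays, 0.28 within wash batch 1 and -0.39 within batch 2. The part of the acute-phase state in these results was not tested.

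**Figure D4:**
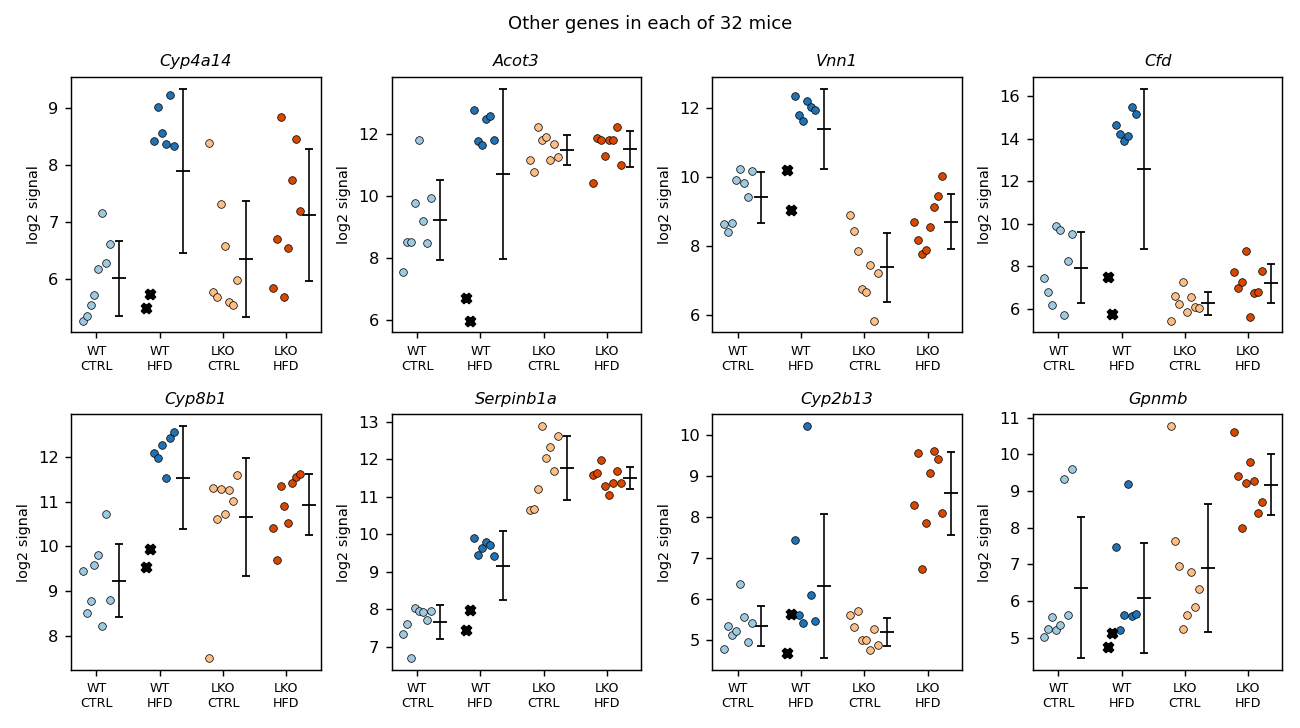
Normalised log2 signal (y axis) of 8 genes in each of the 32 mice, by genotype and diet (x axis), with bars for the mean and SD of 8 mice. Black crosses are WT HFD mice 1 and 2, which lie below the other 6 WT HFD mice for Cyp4a14, Acot3, Vnn1, Cfd, Cyp8b1 and Serpinb1a, and Cyp2b13 and Gpnmb are highest by median in LKO HFD mice.

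In bile acid synthesis 5 of 30 genes had a higher and 1 a lower WT response, beside 6.30% and 4.85% of all genes. Cyp8b1, the sterol 12-alpha-hydroxylase that sets the share of cholic acid, read 8.22 to 10.72 (9.12) in WT CTRL mice, 9.55 to 12.55 (12.02) in WT HFD mice, 7.51 to 11.6 (11.13) in LKO CTRL mice and 9.7 to 11.62 (11.11) in LKO HFD mice. All 8 WT HFD mice lay above the WT CTRL mean, whereas the LKO medians were level. The interaction of Cyp8b1 was 2.73 (SE 0.47, adjusted p = 0.000226), and 2.00 (adjusted p = 0.109) without weights. Akr1d1, a later enzyme of the pathway, had 0.98 (adjusted p = 0.00465), and Cyp39a1, an oxysterol hydroxylase, -1.28 (adjusted p = 0.0407). Without weights 0 of the 30 were called, and the list's median, 0.09 over all arrays, was -0.04 within wash batch 1 and 0.20 within batch 2. In fatty acid synthesis 6 of 33 genes were called, all with a higher WT response (6.30% of all genes), among them the elongase Elovl3 (1.94, adjusted p = 0.0181) and the desaturases Fads2 (0.81) and Fads1 (0.65), none of these 3 without weights. Of 2 other probes for Fads1, 1 was called and 1 had the opposite sign. The median of the fatty acid synthesis list was -0.19 within wash batch 1, with 11 of 33 positive, and 0.51 within batch 2, with 27 positive.

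On lists of RNA and protein handling the called genes mostly had a lower WT response, nearly all with weights only. Of 70 splicing and RNA transport genes 15 had a lower and 1 a higher WT response, beside 4.85% and 6.30% of all genes, and Srsf2, a splicing factor, and Nup50, a nuclear pore protein, were called in both fits. Srsf2 read 11.92 to 12.19 (12.01) in WT CTRL mice, 11.63 to 11.89 (11.82) in WT HFD mice, 11.65 to 11.86 (11.78) in LKO CTRL mice and 11.83 to 12.13 (11.89) in LKO HFD mice. WT diet groups were apart and LKO groups nearly so, in the opposite order, and the interaction was -0.45 (SE 0.10, adjusted p = 0.00264). With the processed signal scaled to the 75th percentile, 7 of the 70 were lower and the median of the list moved from -0.13 to -0.06. The median over all probes moved from -0.01 to 0.05 with it, and 68.6% of all calls were higher.

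Genes of the endoplasmic reticulum stress response gave 8 lower and 0 higher of 74, beside 4.85% and 6.30% of all genes. Atf4, a stress transcription factor, read 14.16 to 14.65 (14.53) in WT CTRL mice, 14.09 to 14.4 (14.18) in WT HFD mice, 13.96 to 14.67 (14.18) in LKO CTRL mice and 14.27 to 14.54 (14.36) in LKO HFD mice. All 8 WT HFD mice were below and all 8 LKO HFD mice above the CTRL mean of their genotype. Its interaction was -0.56 (SE 0.11, adjusted p = 0.000796), and -0.44 (adjusted p = 0.053) without weights. Eif2ak3, which encodes the stress kinase PERK (-0.85), Xbp1 (-0.75), the ubiquitin ligase Syvn1 (-0.70) and the chaperone Hspa5 (-0.53) were called with weights only, and a second probe for Eif2ak3 was not called and had the opposite sign. With the processed signal 3 of the 74 were lower, and the median moved from -0.19 to -0.06. The median over all probes moved from -0.01 to 0.05. Ribosomal protein genes gave 7 lower (4.85% over all genes) and 0 higher of 81 (median -0.11), the largest being Rpl12 at -0.41. This direction turned with the processed signal, with which 0 were lower and 2 higher. Their median was then 0.05, the same as over all probes with that signal.

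NF-kappa B, TNF, IL-1 and TLR signalling gave 8 lower and 0 higher of 92 genes, beside 4.85% and 6.30% of all genes. All 8 were called with weights only, and 5 were lower with the processed signal, with which 68.6% of all called probes were higher. The list had a median of -0.19 over all arrays, but 0.04 within wash batch 1, with 52 of 92 positive, and -0.22 within batch 2. Socs3, a feedback inhibitor of cytokine signalling, read 10.29 to 12.65 (11.61) in WT CTRL mice, 9.64 to 13.09 (10.24) in WT HFD mice, 9.36 to 11 (10) in LKO CTRL mice and 9.25 to 10.71 (10.28) in LKO HFD mice. The groups overlapped, and the difference came from WT CTRL mice, the highest group by median. The interaction was -1.83 (SE 0.45, adjusted p = 0.007), and -1.14 (adjusted p = 0.332) without weights. The IL-1 receptor Il1r1 (-1.65), Jun (-1.20) and the adhesion molecule Icam1 (-0.93) followed, Jun and Icam1 through a rise in LKO mice.

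Markers of lipid-associated macrophages had a negative interaction in 10 of 10 cases, with 5 called, beside 4.85% of all genes, and a median of -1.33. Without weights 0 were called, 1 was positive and the median was -0.93. Gpnmb, a glycoprotein of these cells, read 5.03 to 9.59 (5.46) in WT CTRL mice, 4.76 to 9.19 (5.6) in WT HFD mice, 5.24 to 10.77 (6.56) in LKO CTRL mice and 7.98 to 10.61 (9.25) in LKO HFD mice. It was well above background in 2, 3, 6 and 8 of 8 mice, with LKO HFD mice high throughout and single high mice in the other groups. The interaction of Gpnmb was -2.97 (SE 0.84, adjusted p = 0.0181), and -2.70 (adjusted p = 0.252) without weights. Since most WT readings were not well above background, this difference is approximate. Lpl, lipoprotein lipase, followed at -2.43 (adjusted p = 0.00157), with Cd63 (-1.67), Mmp12 (-1.54) and Cd9 (-1.22). Mmp12 was well above background in 2 and 3 of 8 WT mice on CTRL and HFD, so its difference is approximate too. Trem2, a defining receptor of these cells, was not called (-1.44, adjusted p = 0.156). On the summed level of the 10 markers, in log2, the medians were 13.26 in WT CTRL, 13.49 in WT HFD, 13.53 in LKO CTRL and 14.58 in LKO HFD mice.

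Of 19 stellate cell and matrix genes 1 was called, the proteoglycan Lum (-1.43, adjusted p = 0.0446, weights only), a share near the 4.85% of all genes, with a list median of -0.88. Col1a1, a collagen chain that the study names, read 7.21 to 11.93 (8.3), 7.53 to 12.63 (8.63), 7.83 to 12.68 (9.1) and 10.38 to 11.69 (11.19) in WT CTRL, WT HFD, LKO CTRL and LKO HFD mice. Its LKO rise of 2.18 was called, but the interaction was not (-1.71, adjusted p = 0.128). Of 14 Kupffer cell and macrophage markers 0 were called (median -0.35), as were 0 of 10 endothelial markers (median 0.06), and these lists are too short to tell 0 from the 6.30% and 4.85% of all genes.

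Cfd, complement factor D or adipsin, a protease that fat cells secrete, had the largest interaction of any gene. It read 5.7 to 9.92 (7.86) in WT CTRL mice, 5.74 to 15.51 (14.18) in WT HFD mice, 5.44 to 7.28 (6.16) in LKO CTRL mice and 5.62 to 8.74 (7.13) in LKO HFD mice. WT HFD mice formed 2 sets for Cfd, 6 mice between 13.9 and 15.51 and mice 1 and 2 at 7.49 and 5.74. The interaction was 5.21 (SE 0.95, adjusted p = 0.000422), and 3.68 (adjusted p = 0.14) without weights. Of the other white adipocyte markers tested 0 of 7 were called, too few genes to tell this from 6.30% and 4.85% of all genes. Among them Fabp4 had -0.43 (adjusted p = 0.32). Car3, a carbonic anhydrase of fat and liver, was not called at its brightest probe (0.42, adjusted p = 0.454), whereas 2 dimmer probes were called at 3.10 and 3.08 with weights only.

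Sex-biased liver genes gave calls in both directions. Ntrk2, a neurotrophin receptor that is female-biased in liver, read 8.9 to 10.72 (9.88) in WT CTRL mice, 6.89 to 9.24 (7.66) in WT HFD mice, 8.53 to 11.06 (9.86) in LKO CTRL mice and 8.9 to 10.36 (9.55) in LKO HFD mice. WT HFD mice had the lowest median and overlapped each of the other groups. Its interaction was -2.34 (SE 0.46, adjusted p = 0.00096), and -1.89 (adjusted p = 0.0611) without weights. Of 24 female-biased genes 2 were higher and 3 lower, and of 29 male-biased genes 5 were higher and 2 lower, beside 6.30% and 4.85% of all genes. Without weights 1 of the female-biased genes was called, lower, and 0 of the male-biased ones, whose median moved from 0.33 to -0.12 within wash batch 1. A list of 51 genes held cytochrome P450 families 1 to 3, the nuclear receptors CAR and PXR and their targets. In it 8 were higher and 2 lower, beside 6.30% and 4.85% of all genes. The list's median was 0.14, and 0.02 without weights. The higher ones included Cyp2c38 (1.95), Cyp2g1 (1.79) and Nr1i3, which encodes CAR (0.71). Of the 10 called genes Cyp2b13, which was lower, was called in both fits, with the limit on its readings given above.

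**Figure D5:**
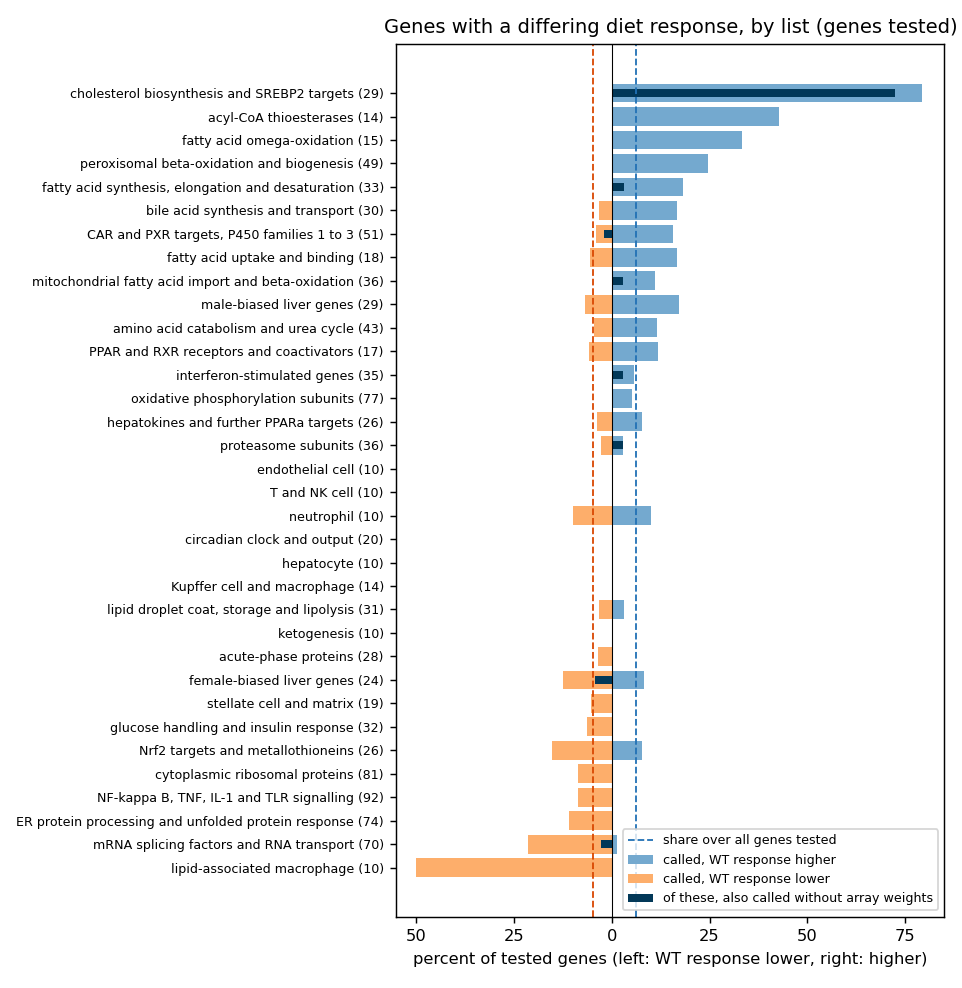
Percent of tested genes called (x axis) for each gene list (y axis, with the number of genes tested), with the WT response higher to the right and lower to the left. Dark bars are genes also called without array weights and dashed lines the shares over all genes, 6.30% and 4.85%. The cholesterol list has 23 of 29 genes to the right, and no other list reaches that share.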

How the data were processed

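Liver RNA of 48 mice was hybridised to Agilent one-colour mouse arrays, 1 array per mouse, and grouped by the genotype and diet labels. The deposited scanner files hold spot intensity made by the authors with Feature Extraction 10.10.1.1, a version given in the submitters' processing notes. Their median and mean spot intensities are neither background-subtracted nor normalised, and a processed, background-subtracted signal in the same files served as an alternative. The authors also deposited log2 values that they had filtered, corrected for wash batch and quantile-normalised. These correlated with the values used here at r = 0.9994 to 0.9995 per array, and were an alternative.

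Median spot intensities were log2-transformed and quantile-normalised, and repeat spots were averaged, giving 56605 probes from 59305 spots that were not controls. Outlier-flagged spots were left out. A probe was tested if any group had 4 or more of its 8 arrays well above background, which left 33323. Values were missing for 194 of them, and these were fitted on the remaining arrays. A limma model (limma 3.58.1, R 4.3.3) with 6 group means and array weights, as in the methods of the study, was fitted to all 48 arrays. Wash batch was a term of the model, whereas the study corrected the values for it beforehand, and the interaction was tested with Benjamini-Hochberg adjustment. Precision is limited by the number of arrays. Gene names came from RefSeq (GRCm38.p6) through the accession of 22293 probes and from the array design otherwise.

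The genes named were Ppara, the 12 with the largest interactions in each direction among genes with a symbol called with and without weights, up to 4 called members per gene list, and genes that the study names. Some of these and of the listed genes are not reported here. Other list members, and the genes given with no list, were named after their values were seen. Comparison, members and lists were chosen with earlier results of these data known. The alternatives covered weights, arrays in the fit, scaling, background correction, the deposited log2 values, the dim-probe filter, wash batch, slide, replicate number, moderation, threshold and each array left out. The model was tested on simulated data.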

Additional observations from a re-analysis of the deposited data

Results flagged for a closer look

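The difference between the WT and LKO responses was itself the quantity tested, so the genes chosen by the naming rule stand here with their interaction. The WT response was higher for Msmo1 (2.6), Nsdhl (2.44), Sqle (2.41), Serpinb1a (2.38), Hmgcs1 (2.29), Fam89a (2.29), Mvd (2.22), Srgap3 (2.15), Slc16a11 (2.14), Cyp51 (2.02), Tm7sf2 (1.99) and Fdps (1.9), of which 8 belong to the cholesterol list. It was lower for Cyp2b13 (-2.95, approximate, as it was well above background in few mice outside the LKO HFD group), Neat1 (-1.25), Arfgap3 (-1.18), Ppl (-1.17), Syne3 (-0.9), Ptprk (-0.87), Amd2 (-0.84), Macir (-0.79), Mad2l1bp (-0.79), Cdc25a (-0.77), Frrs1 (-0.77) and Slc5a3 (-0.77). The probes for Ppara gave 0.58 at the dimmer and 0.42 at the brighter one.

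In 8 of 136 groups of 8 mice examined (5.88%) 1 mouse lay far from the others of its group, and chance alone sets apart about 1 in 20 groups. LKO CTRL mouse 1, whose array had the lowest weight of the 32, was the mouse in 5 of them, with a normalised log2 signal of 13.31 for Tm7sf2, 10.12 for Ppl, 10.84 for Acot2, and 11.77 and 13.26 for the dimmer and the brighter probe for Ppara. The other 3 were Mad2l1bp in WT HFD mouse 1 (11.89) and LKO HFD mouse 8 (12.06), and Slc5a3 in LKO HFD mouse 4 (7.29).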

How the results depend on the processing

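The number of calls depended on the processing, and the direction of the named genes much less. Against 3472 probes called (1931 with a higher and 1541 with a lower WT response), there were 298 (214 and 84) without array weights, 1226 (801 and 425) with no filter on dim probes, 2185 with no wash batch term (844 lower), 2122 (1274 and 848) with slide as a block, and 1091 (727 and 364) at an adjusted p of at most 0.01. Processed signal scaled to the 75th percentile, which changes signal and scaling together, gave 3017 higher. Within wash batch 1 alone, without weights, limma called 0 probes (0 and 0, with 2232 at an unadjusted p under 0.05), and within batch 2 alone 62 (52 and 10). Without the 4 arrays of low weight and without weights there were 2068 (1286 and 782). Without the 2 WT HFD mice with the highest Lcn2, a choice made after seeing the data, there were 822 (537 and 285) without weights and 4205 with them.

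Leaving out each mouse in turn gave 2118 to 4518 calls with weights (1271 to 2441 higher and 847 to 2077 lower), the lowest without WT HFD mouse 7 and the highest without WT CTRL mouse 7. Without weights it gave 108 to 1109 (90 to 717 and 18 to 392), the lowest without LKO CTRL mouse 8 and the highest without LKO CTRL mouse 1.

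With the replicate number as a block the model called 2276 probes, 928 of them with a lower WT response, and the interaction of Ppara at the brighter probe was 0.39 (adjusted p = 0.0663). Same-numbered mice of different groups deviated with a median correlation of 0.049 (-0.456 to 0.694 over 48 pairs), against 0.002 for other pairs. The correlation was over 0.1 for 21 of these 48 pairs and for 103 of the 336 other pairs. These values do not settle whether the numbers pair the mice.

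For Ppara the brighter probe, at 0.42 in the model reported, kept its sign but not its call at 0.22 without weights, 0.42 with the 32 arrays alone (adjusted p = 0.0647), 0.38 with no filter, 0.34 with no wash batch term, 0.42 with slide as a block, 0.072 and 0.344 within wash batches 1 and 2, 0.42 without the arrays of low weight, and 0.34 without the 2 WT HFD mice and weights. Leaving out each mouse gave 0.33 to 0.53 with weights, no longer called in 4 of 32 cases, and 0.14 to 0.35 without weights, called in 0.

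The 24 genes with the largest interactions in both fits kept their call and direction in each setting run, except at an adjusted p of at most 0.01, which Syne3 missed (0.0112), within wash batch 1 (0 called) and batch 2 (9 called), without the 2 WT HFD mice and weights (22 called), and in the fits without weights that left out 1 mouse (567 of 768 called). These 24 were chosen by their calls with and without weights, which fixes the result without weights in advance and favours the other settings. Among the genes of the naming rule the sign turned for Pparg alone, from 0.24 to -0.11 without weights, -0.35 within wash batch 1, and -0.26 to 0.12 without weights when 1 mouse was left out. Of other genes in the text, Lbr (-0.01) turned to 0.14 and Car3 (0.42) to -0.01 without weights, and Insig1 (-0.12) and Stard4 (-0.47) were negative within wash batch 1. Car3, Lbr, Lcn2, Saa1 and Alb turned there too. The cause of these changes was not tested.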

Other observations

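Calls on several other lists were mostly made with weights only. Of 35 interferon-stimulated genes 2 had a higher WT response, a share no higher than the 6.30% of all genes. Psmb9, an interferon-inducible proteasome subunit, read 10.93 to 12.12 (11.72) in WT CTRL mice, 11.94 to 13.15 (12.22) in WT HFD mice, 12.2 to 12.93 (12.72) in LKO CTRL mice and 12.16 to 12.71 (12.51) in LKO HFD mice. Every LKO CTRL mouse lay above every WT CTRL mouse, and the interaction of Psmb9 was 0.92 (adjusted p = 0.000822), called in both fits, while a second and mostly undetected probe had -0.08. Tap1, the peptide transporter of antigen presentation, had 0.51 with weights only.

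Of 26 Nrf2 targets and metallothioneins 2 were higher and 4 lower, beside 6.30% and 4.85% of all genes, with a list median of -0.3. The called glutathione transferases among them were split. Gstp1 (-1.04), Gstm1 (-0.87) and Gstm3 (-0.81) had a lower and Gstt2 (0.97) and Gstt1 (0.69) a higher WT response, none of these without weights. Bhmt, which remethylates homocysteine with betaine, read 15.75 to 17.85 (17.48) in WT CTRL mice, 17.36 to 18.21 (17.98) in WT HFD mice, 17.74 to 18.21 (18.12) in LKO CTRL mice and 17.93 to 18.24 (18.16) in LKO HFD mice. WT CTRL mice had the lowest median, and the interaction of Bhmt was 0.95 (adjusted p = 0.00537, weights only). Of 43 genes of amino acid catabolism and the urea cycle 5 were higher and 2 lower, against 6.30% and 4.85% of all genes. With the processed signal scaled to the 75th percentile 12 were higher and 0 lower. Over all probes 68.6% of calls were higher with that signal, against 55.6%.

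Angptl8, a feeding-induced inhibitor of lipoprotein lipase activity, read 12.74 to 15.97 (14.83) in WT CTRL mice, 12.65 to 13.66 (13.26) in WT HFD mice, 12.84 to 14.3 (13.25) in LKO CTRL mice and 12.7 to 15.63 (13.54) in LKO HFD mice. WT CTRL mice had the highest median, and the interaction of Angptl8 was -1.62 (adjusted p = 0.0361, weights only). Fitm1, a lipid droplet protein that the study names, read 7.56 to 10.43 (9.63), 9.24 to 11.56 (11.31), 7.23 to 9.33 (8.58) and 7.42 to 9.56 (8.76) in the same order of groups. It rose in WT mice by 1.53, and its interaction was 1.66 (adjusted p = 0.0189, weights only). Pparg, also named there, rose in both genotypes and was not called (0.24, adjusted p = 0.693).

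Of the 208 genes called in both fits 40 have no gene symbol, 30 with a higher and 10 with a lower WT response. A transcript known only by its position, chr10:92547995-92556102, had the largest difference among those named in this way and was chosen after its values were seen. It had an interaction of 4.27 (SE 0.57, adjusted p = 7.52e-06), and 3.46 (adjusted p = 0.0116) without weights, from a rise of 2.68 in WT mice and a fall of -1.58 in LKO mice. Within wash batch 1 its interaction was 1.97 and within batch 2 4.73, without weights. Its probe lies at chr10:92554637-92554696 (mm9).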
